A study of Mus musculus with 3 samples.

Results

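The genes of the proteasome and the immunoproteasome were read in the cytosolic RNA of mouse macrophages 50 min after stimulation with lipid A. Members were the protein-coding genes whose GENCODE M21 symbol begins with Psm, a letter from a to g and a digit. This rule found 50 of the 55536 annotated genes in the gene tables, among 22028 protein-coding genes, and it used no measured value. The cells were bone marrow-derived macrophages, which are grown in culture from marrow, of the C57BL/6J strain, and the labels name no engineered allele. All 3 libraries form 1 group, stimulated with 100 ng/ml lipid A, the part of bacterial lipopolysaccharide that Toll-like receptor 4 binds, and their RNA was depleted of ribosomal RNA. The labels do not give age or sex, a single donor label stands on all 3 replicates, and neither pooling of marrow nor the separation of cultures is stated. The spread behind every p-value is thus that of these 3 samples and may be technical. No unstimulated sample and no nuclear fraction was analysed here, so the values are levels and variation between libraries, not responses to lipid A.

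The proteasome degrades proteins tagged with ubiquitin. Its 20S core is a barrel of outer rings of alpha subunits, which gate the entrance, around inner rings of beta subunits, of which Psmb5, Psmb6 and Psmb7 carry the proteolytic sites. In immune cells and after interferon signalling these can be replaced by Psmb8, Psmb9 and Psmb10, respectively, which makes the immunoproteasome and alters the peptides that are presented on MHC class I. The 19S particle, made of a base with ATPases that unfold substrates and a lid that removes ubiquitin, caps the core, and PA28, made of Psme1 and Psme2, is an alternative cap that interferon also induces.

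The gene expected counts of the libraries summed to 33044910, 36769402 and 36522216. Where a count is 0, up to 3 counts remain possible, or 0.0908, 0.0816 and 0.0821 CPM (counts scaled to library size), a limit that covers counting error only. All 8 macrophage markers reached 1 TPM in every library, where TPM (transcript abundance scaled to a fixed sum per library) is a level per length. All markers of T and NK cells (4), B cells (4), dendritic cells (4), fibroblasts (4) and erythroid cells (3) were under 1 TPM in each library. The summed TPM of the T and NK list was at most 0.06, that of the B list 0.7 to 1.13 and that of the dendritic list 0.46 to 1.08, and Cd3e was listed at 0 in each library. Among 4 neutrophil markers Ly6g was listed at 0 and Mpo averaged 0.193 TPM, while S100a8 averaged 11.9 and S100a9 19.8 TPM. In such bulk samples, fewer cells of a type and less RNA per cell cannot be told apart. The TPM scale moved between libraries, as the median detected protein-coding gene had a log2 TPM that was 0.48 higher in library 1 than in library 2 and 0.08 higher than in library 3, so levels are compared between genes within a library, and libraries are compared by CPM.

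Of the 50 members, 40 had a mean TPM above the median detected protein-coding gene, and 6 of the 7 assembly genes were among the 10 that did not. Of the 50, 47 reached 1 TPM in every library. The median over the 50 was 23.96 TPM, with library medians of 25.2, 19.5 and 26.9 TPM, beside 9.40 TPM over the 9128 protein-coding genes that reached 1 TPM in every library and 0.197 TPM over all protein-coding genes. Together the members made up 0.455% ± 0.0289 (SD, n = 3) of the TPM of protein-coding genes. The 3 members outside the 47 were Psmb11, Psma8 and Psmc3ip. Psmb11, the beta subunit of the thymus, had 1 count in library 1 and 0 in the others. Psma8, the alpha subunit of the testis, had 32, 30 and 40 counts, or 1.23, 0.43 and 0.54 TPM. Its protein-coding transcripts alone had 0.35, 0.37 and 0.54 TPM. Psmc3ip, a recombination factor that shares only the symbol's form and is not a proteasome subunit, had 0.32, 0.30 and 0.73 TPM.

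**Figure D1:**
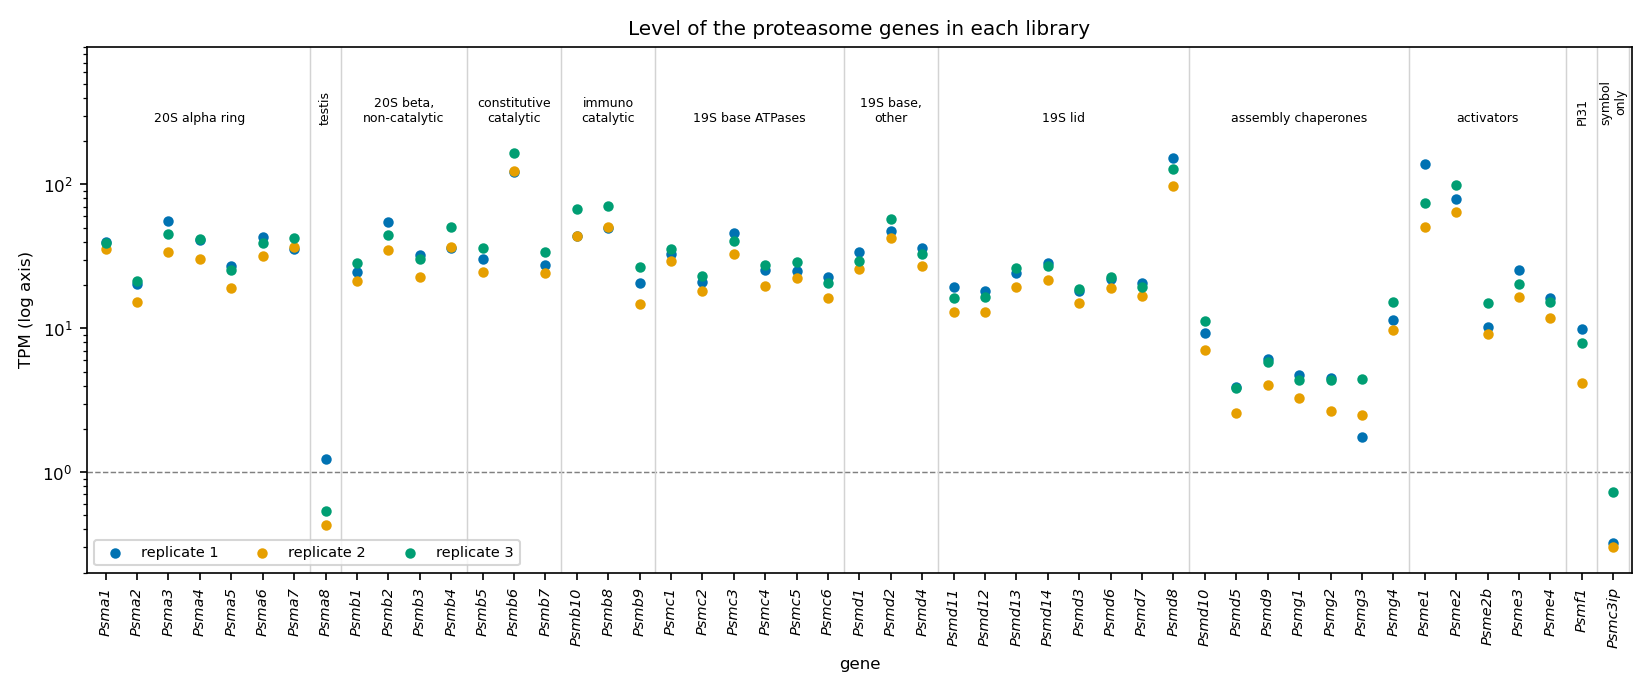
TPM (log axis) of 49 members in each of the 3 libraries, grouped by role; Psmb11, listed at 0 TPM in 2 libraries, is not drawn, and the dashed line marks 1 TPM. Psmb6, Psmd8, Psme1 and Psme2 stood highest, and the assembly chaperones stood below the structural subunits.

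The alpha ring had a median of 38.15 TPM over its 7 somatic subunits, whose means spanned 2.37-fold. Psma3 had 55.2, 34.0 and 45.4 TPM in libraries 1, 2 and 3, and Psma7 had 35.7, 36.5 and 42.7 TPM. The lowest were Psma5, at 27.0, 18.96 and 25.3 TPM, and Psma2, at 20.2, 15.3 and 21.3 TPM. Neighbours in the order of levels were counted as apart when the log2 difference had the same sign in all 3 libraries and its mean exceeded its SD. By this measure 2 of the 6 neighbouring pairs of the alpha ring were apart, Psma4 over Psma5 and Psma5 over Psma2, and the upper 5 subunits could not be placed in order.

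The non-catalytic beta subunits, Psmb1 to Psmb4, had a median of 34.75 TPM. Psmb2 (54.8, 34.9 and 44.6 TPM) and Psmb4 (36.0, 36.6 and 50.4 TPM) could not be placed in order. Psmb4 exceeded Psmb3 (32.3, 22.8 and 30.5 TPM), and Psmb3 exceeded Psmb1 (24.6, 21.4 and 28.4 TPM), in each library.

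Among the catalytic subunits, the levels of the 3 pairs differed in direction. Psmb5, the chymotrypsin-like subunit, had 30.1, 24.6 and 36.4 TPM, and its replacement Psmb8 had 49.7, 50.2 and 70.6 TPM. Psmb7, the trypsin-like subunit, had 27.7, 24.1 and 33.7 TPM, and its replacement Psmb10 had 44.0, 43.6 and 67.3 TPM. In both pairs the immunoproteasome gene was higher in each library by gene TPM, and the lowest value of Psmb8 and of Psmb10 was above the highest of its partner. For the caspase-like position the order was the opposite, with Psmb6 at 122, 124 and 164 TPM and Psmb9 at 20.7, 14.8 and 26.5 TPM.

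The log2 ratio within a library was 0.73, 1.03 and 0.96 for Psmb8 over Psmb5, a mean of 0.90 ± 0.16 (SD, n = 3) or 1.87-fold by gene TPM, but -0.04 ± 0.08 when only protein-coding transcripts were summed. It was 0.67, 0.85 and 1.00 for Psmb10 over Psmb7, a mean of 0.84 ± 0.17 or 1.79-fold by gene TPM, but -0.52 ± 0.05 over protein-coding transcripts, which turns the direction. For Psmb9 over Psmb6 it was -2.56, -3.07 and -2.63, a mean of -2.75 ± 0.27, and -2.53 ± 0.27 over protein-coding transcripts. The mean of the 3 pairs was -0.34 ± 0.10 by gene TPM and -1.03 ± 0.08 over protein-coding transcripts, below 0 in 3 of 3 libraries either way. An exact two-sided sign-flip permutation test over the libraries gave p = 0.25 for each of the 3 pairs and for their mean by gene TPM, which is the smallest p that 3 libraries allow, so no ratio could pass 0.05. Over protein-coding transcripts the same exact test gave p = 0.5 for Psmb8 over Psmb5, with 1 of 3 libraries above 0, and p = 0.25 for the others.

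The order by gene TPM was Psmb6, Psmb8, Psmb10, Psmb5, Psmb7 and Psmb9, and all 5 neighbouring pairs were apart beyond their spread. Psmb5 over Psmb7 rested on a log2 difference of only 0.09 ± 0.05. It did not hold in the authors' second quantification, where library 2 had Psmb5 at 8.69 and Psmb7 at 8.78 TPM. Over protein-coding transcripts it was Psmb6, Psmb5, Psmb8, Psmb7, Psmb10 and Psmb9, and 3 of 5 neighbouring pairs were apart. Psmb5 and Psmb8 were not, nor were Psmb10 and Psmb9. The level of Psmb9 here includes a short coding transcript, Psmb9-202. Its longer coding transcript Psmb9-204 alone had 11.96, 11.59 and 15.78 TPM, below the coding TPM of Psmb10 (19.35, 16.19 and 24.13) in each library. Psmb8, Psmb9 and Psmb10 together made up 39.6% ± 1.43 (SD, n = 3) of the TPM of the 6 catalytic genes, and 28.7% ± 1.64 of their protein-coding TPM. Leaving out Psmb6 and Psmb9, the share of Psmb8 and Psmb10 was 64.7% ± 2.43 by gene TPM and 45.7% ± 0.445 over protein-coding transcripts.

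**Figure D2:**
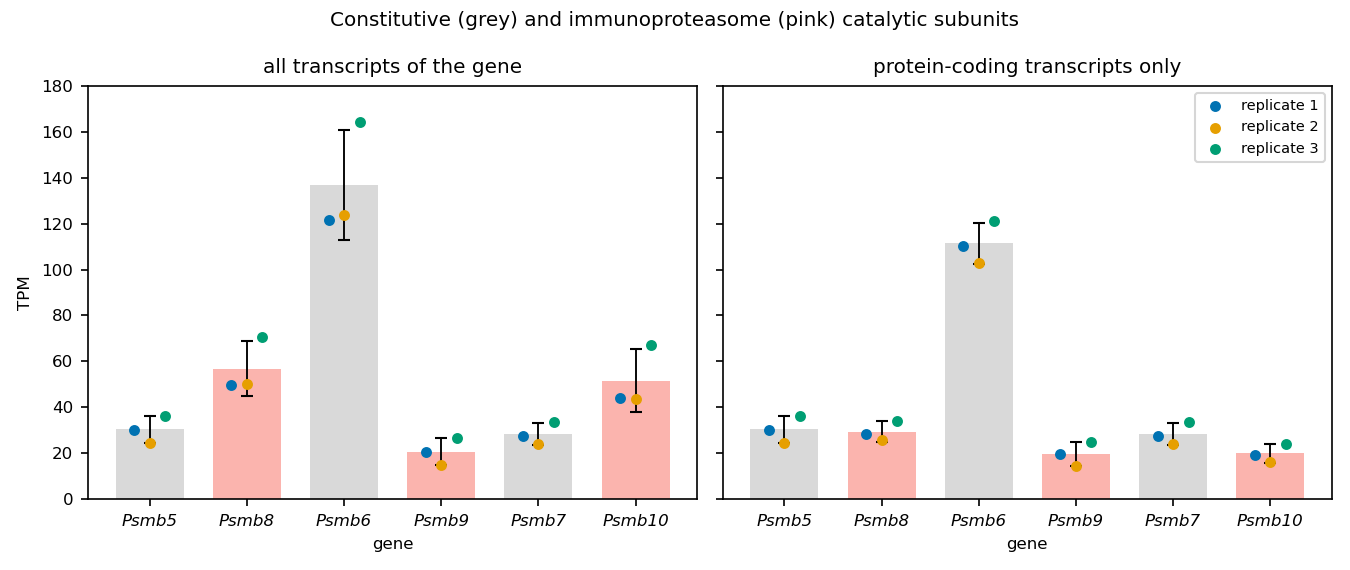
TPM of the constitutive (grey) and immunoproteasome (pink) catalytic subunits, from all transcripts (left) and from protein-coding transcripts only (right); bars are means, error bars SD over 3 libraries, and points single libraries. The bars of Psmb8 and Psmb10 are above those of Psmb5 and Psmb7 on the left, and that of Psmb8 level with and that of Psmb10 below its partner on the right, while Psmb6 is highest in both.

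The dependence on the class of transcript was traced to single isoforms. The members have 278 annotated transcripts, of which 111 are protein-coding, 99 retain an intron, 39 are processed transcripts without an open reading frame, 28 are targets of nonsense-mediated decay (NMD) and 1 awaits experimental evidence. For most members this mattered little, since the median share of TPM in protein-coding transcripts was 98.8% over the 47 detected members, beside 97.9% over 9124 protein-coding genes. The share was 90% or more in 40 of 47 members and in 6645 of the 9124 genes, and under 60% in 3 members and in 636 genes. The 3 were Psmb10, Psmb8 and Psma3, and they are named here after their values were seen.

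Psmb8 had 57.3, 50.9 and 48.5% of its TPM in protein-coding transcripts, and Psmb10 had 44.0, 37.1 and 35.8%. Psmb5 had 100% and Psmb7 99.5% ± 0.0618 (SD, n = 3), so both pairs set a gene of mixed transcripts against a gene of nearly pure coding transcripts. Psmb6 had 90.4, 83.1 and 73.6%, and Psmb9 95.5, 98.3 and 93.9%.

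In Psmb8 the non-coding part was mainly 1 transcript, Psmb8-205, of 5 exons and 1234 bases, which is annotated as retaining an intron. It had 20.9, 24.4 and 35.9 TPM, or 41.9, 48.6 and 50.9% of the gene, and in the second quantification 38.7, 49.8 and 52.0%. The main coding transcript Psmb8-203 had 26.3, 24.9 and 33.3 TPM. The retained intron lies at chr17:34199381-34199570 on the + strand (mm10) and has 190 bases, beginning with GT and ending with AG. It is shown here because it holds the only bases of Psmb8-205 that are not in the coding transcript Psmb8-201, with the intron in capitals and 20 exonic bases in lower case on each side.
Psmb8-205 intron: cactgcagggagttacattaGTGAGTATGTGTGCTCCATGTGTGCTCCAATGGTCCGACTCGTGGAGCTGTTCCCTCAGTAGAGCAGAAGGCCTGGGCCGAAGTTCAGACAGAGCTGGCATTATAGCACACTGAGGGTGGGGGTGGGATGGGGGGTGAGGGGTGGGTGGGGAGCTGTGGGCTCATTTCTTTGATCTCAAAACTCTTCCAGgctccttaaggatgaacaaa
Against Psmb8-203, the transcript also runs 245 bases past the 3′ end, at chr17:34201206-34201450. The deposited tables give counts per transcript and not per base, so on which of these bases the reads fell was not tested.

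In Psmb10 the main non-coding transcript was Psmb10-203, a processed transcript of 426 bases, at 20.8, 20.0 and 36.6 TPM, or 47.4, 45.8 and 54.3% of the gene. The main coding transcript, Psmb10-201 of 1311 bases, had 19.4, 16.2 and 24.1 TPM. By expected counts the order was the opposite, with 177, 259 and 415 for Psmb10-203 and 893, 1116 and 1331 for Psmb10-201, since TPM divides by length. Of the 426 bases, 378 are shared with Psmb10-201, and the 44 and 4 bases that are its own lie at chr8:105936982-105937025 and chr8:105935735-105935738. The share of Psmb10-203 was 49.7% ± 5.97 (SD, n = 3) in the second quantification. In Psmb6, the retained-intron transcript Psmb6-202 had 9.42, 18.1 and 39.0 TPM, or 7.73, 14.6 and 23.7% of the gene, highest in library 3.

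Psma3 and Psmd13, a lid subunit, also had large shares outside coding transcripts. The coding share of Psma3 was 77.5, 42.0 and 53.5%, and in library 2 its retained-intron transcript Psma3-203 had 30.7% of the TPM and its NMD transcript Psma3-201 26.6%. Psmd13 had 61.1% ± 6.46 in coding transcripts and 37.2% ± 6.17 in the NMD transcript Psmd13-211 (SD, n = 3).

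**Figure D3:**
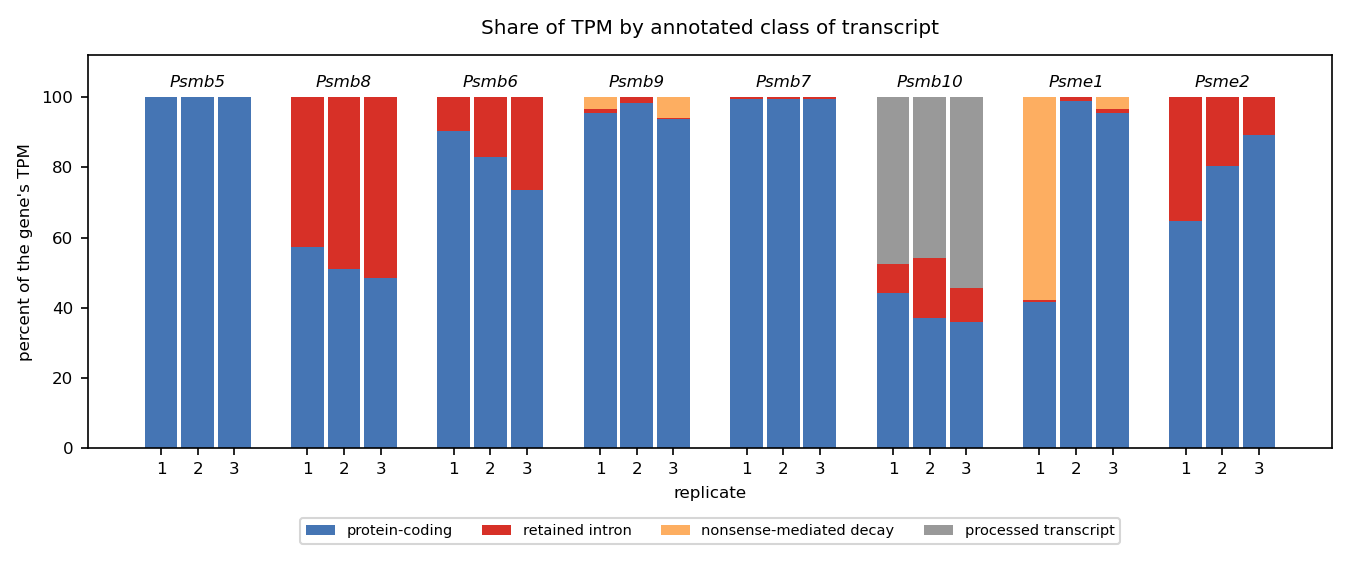
Percent of each gene's TPM in 4 annotated classes of transcript, for the 6 catalytic subunits and the PA28 genes Psme1 and Psme2, with 1 bar per library. The retained-intron transcript Psmb8-205 alone holds 41.9 to 50.9% of Psmb8, a processed transcript holds 45.8 to 54.3% of Psmb10, and an NMD transcript holds 57.9% of Psme1 in library 1 and at most 3.32% in the others.

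The promoters of the constitutive subunits Psmb5 and Psmb6 are shown because both hold the core of the antioxidant response element (TGACNNNGC, searched on both strands), to which the transcription factor Nfe2l1 can bind, while those of Psmb8, Psmb9 and Psmb10, whose windows overlap annotated exons, do not. Psmb7 had no sequence here. The sequences are RefSeq's, of the build GRCm38.p6, from 250 bases before the start up to the first base that a GENCODE M21 exon covers, written in the direction of transcription with the motif in capitals. They lie at chr11:70525107-70525356 on the + strand for Psmb6 and at chr14:54618023-54618245 on the - strand for Psmb5.
Psmb6 promoter: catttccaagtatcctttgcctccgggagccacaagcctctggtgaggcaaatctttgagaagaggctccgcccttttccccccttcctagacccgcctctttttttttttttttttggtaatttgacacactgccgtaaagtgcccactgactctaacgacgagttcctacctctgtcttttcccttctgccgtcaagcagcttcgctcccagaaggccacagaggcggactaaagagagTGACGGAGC
Psmb5 promoter: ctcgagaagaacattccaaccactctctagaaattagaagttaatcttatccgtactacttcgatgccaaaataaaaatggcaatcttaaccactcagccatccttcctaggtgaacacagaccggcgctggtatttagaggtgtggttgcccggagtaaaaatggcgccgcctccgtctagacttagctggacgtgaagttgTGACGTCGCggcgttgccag
The motif lies 9 to 1 bases before the RefSeq start of Psmb6 and 47 to 39 bases before that of Psmb5. Of the 50 members, 42 had a RefSeq promoter, and 5 of these (11.9%) held the motif, in Psmb5, Psmb6, Psmc6, Psmd12 and Psmd9, beside 10.2% of all 32851 promoters. The members' share was near that of all promoters, so the matches in Psmb5 and Psmb6 are not read as a trait of the constitutive subunits. The core of the interferon-stimulated response element was in 3 (7.14%), Psmb3, Psmd4 and Psmd9, beside 2.98% of all promoters. The gamma-activated site, TTCNNNGAA, was in 2 (4.76%), Psmb8 and Psmg1, beside 7.02%. The CCAAT box was in 15 (35.7%) beside 33.8%, and the NF-kB consensus in 1 (2.38%), Psmd12, beside 3.9%. All motifs were searched on both strands and none was screened for overlap with another. A match describes letters in this window and is not a binding site.

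The ATPases of the 19S base, Psmc1 to Psmc6, had a median of 24.84 TPM. Psmc3 was the highest at 46.2, 32.8 and 40.5 TPM, followed by Psmc1 at 33.0, 29.1 and 35.8 TPM. Psmc2, at 21.1, 18.1 and 23.2 TPM, and Psmc6, at 22.7, 16.3 and 20.6 TPM, were lowest and not apart from each other. These 6 subunits form a ring with 1 copy of each, and their means spanned 2.01-fold.

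The other base subunits Psmd1, Psmd2 and Psmd4 had a median of 32.03 TPM. Psmd2, a scaffold, had 47.7, 42.7 and 57.3 TPM. Psmd4, a ubiquitin receptor, had 36.2, 27.2 and 32.8 TPM, and Psmd1, a scaffold, had 33.9, 25.9 and 29.5 TPM. Psmd2 was the highest of the 3 in each library.

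The lid had a median of 20.06 TPM over 8 genes and a single gene far above it. Psmd8 had 152, 96.9 and 129 TPM, 2.28 ± 0.13 (log2; mean ± SD, n = 3) above the next gene, Psmd14, at 28.3, 21.5 and 27.2 TPM. Psmd14, the deubiquitinase of the lid, stood at the top of the other 7, whose means lay between 15.9 and 25.7 TPM. Psmd11 (19.2, 13.0 and 16.1 TPM) and Psmd12 (18.1, 13.0 and 16.5 TPM) were lowest by gene TPM, while over protein-coding transcripts Psmd13 was lowest, with a mean of 14.2 TPM. Of the TPM of Psmd8, 99.2% ± 0.52 lay in coding transcripts, so its level did not rest on the class of transcript. The median over the 17 genes of the 19S particle was 24.21 TPM and that over the 17 somatic genes of the 20S core 38.15 TPM.

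Assembly chaperones act on precursors and leave the finished particle. The genes of the 7 chaperones among the members were lower than those of the subunits, with a median of 4.13 TPM. Psmg4, part of a chaperone of the alpha ring, had 11.4, 9.79 and 15.1 TPM, and Psmd10, which assembles the base, had 9.21, 7.11 and 11.2 TPM. The lowest were Psmd5, at 3.90, 2.57 and 3.87 TPM, and Psmg3, at 1.75, 2.50 and 4.46 TPM. The highest mean among the 7, 12.1 TPM, was below the lowest mean of any somatic subunit of the core or of the 19S particle, 15.9 TPM. The 4 assembly genes found outside the symbol rule were mixed. Akirin2 and Ecpas, with means of 13.2 and 13.6 TPM, were also below 15.9 TPM. Txnl1, with a mean of 20.8 TPM, and Pomp, at 45.0, 45.9 and 53.4 TPM (mean 48.1), were above it. Psmf1, which encodes the inhibitor PI31, had 9.93, 4.19 and 7.90 TPM.

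Among the activators, the PA28 genes stood highest. Psme2 had 78.7, 64.03 and 98.7 TPM, and Psme1 had 139, 50.3 and 74.2 TPM, so that only library 1 placed Psme1 above Psme2. Psme3, the nuclear PA28 gamma, had 25.4, 16.5 and 20.2 TPM, and Psme4, which encodes PA200, had 16.2, 11.8 and 15.2 TPM. The means of Psme1 and Psme2, 87.7 and 80.5 TPM, were not apart (log2 difference 0.02 ± 0.69), and both were above Psme3 in each library.

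The high TPM of Psme1 in library 1 went with 1 short transcript and not with more counts. Psme1 had 2921, 2823 and 3266 counts, or a log2 CPM of 6.46, 6.30 and 6.46. Its NMD transcript Psme1-209, of 439 bases, had 80.2, 0 and 2.46 TPM, while the coding transcript Psme1-208 had 57.6, 49.7 and 70.6 TPM. Of the 439 bases, 434 are shared with Psme1-208. The second quantification also placed it in library 1, with 48.5% of the gene's TPM against 0.328 and 0.757%. Without library 1, 97.2% of the TPM of Psme1 lay in coding transcripts, beside 78.7% ± 32.2 with all 3.

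Psme2 had a coding share of 64.7, 80.4 and 89.3%, with 33.3, 17.3 and 9.31% in the retained-intron transcript Psme2-207. Psme2b, a gene of 1 exon closely related to Psme2, had 10.2, 9.18 and 15.1 TPM, and reads of the 2 genes may have been split by the authors' quantification, so its level is uncertain.

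Variation between libraries was tested over all genes with edgeR's goodness-of-fit test and Benjamini-Hochberg adjustment. None of the 49 members tested passed an adjusted p of 0.05, beside 1.66% of all 12231 genes. At an unadjusted p under 0.05 there were 5 of 49 (10.2%), beside 6.42% of all genes. With a common dispersion 1 member passed, Psmg3, and with the other size factors, no filter, the second quantification or any library left out none did. The unadjusted count was 2 to 5 in the runs with all libraries, beside 5.78 to 8.23% of all genes. Without library 1 it was 0 (beside 5.25% of all genes), without library 2 it was 8 or 16.3% (5.06%), and without library 3 it was 2 or 4.08% (5.03%). The 5 were Psmb8 (log2 CPM 5.70, 6.19 and 6.33), Psmg3 (0.57, 1.57 and 1.96), Psmb4 (5.46, 5.92 and 6.01), Psme2 (5.84, 6.12 and 6.42) and Psmb10 (5.09, 5.44 and 5.67). Each of them was lowest in library 1 and highest in library 3.

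That order of libraries was shared by the catalytic subunits. Of 49 members, 19 (38.8%) were lowest in library 1 and highest in library 3 by log2 CPM, beside 19.7% of all genes. Among Psmb1 to Psmb10 it held for 8 of 10, including all 6 catalytic genes, in which library 3 exceeded library 1 by 0.39 to 0.63 (log2 CPM). Psmb5 had 4.69, 4.88 and 5.08, Psmb6 6.45, 6.93 and 6.96, Psmb7 5.06, 5.34 and 5.45, and Psmb9 4.38, 4.63 and 4.87 log2 CPM. In the 19S particle it held for 2 of 17, and 13 of 17 were highest in library 2, beside 3813 of all 12231 genes. The constitutive and the immunoproteasome genes thus had the same order of libraries.

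Transcript length moved with this order. Among protein-coding genes it held for 36.8% of the 1440 with a mean effective length under 1000 bases and for 17.7% of the 9696 longer ones. Among members it held for 14 of 22 short genes (63.6%) and 5 of 27 longer ones (18.5%). The catalytic subunits have mean effective lengths of 561 (Psmb6) to 952 (Psmb7) bases, and in the short genes library 3 exceeded library 1 by a median of 0.18 (log2 CPM) over all and 0.39 over members. The part of length in the order of libraries was not tested. TPM divides by effective length, but this does not remove a length effect that differs between libraries, so the TPM values do not test it. On the TPM scale, 8 of Psmb1 to Psmb10 had a difference of library 3 minus library 1 above the -0.08 (log2) of the median detected protein-coding gene. Of all 47 detected members, 28 did. The difference was 0.62 for Psmb10, 0.51 for Psmb8, 0.43 for Psmb6, 0.36 for Psmb9, 0.29 for Psmb7 and 0.27 for Psmb5. Over protein-coding transcripts the difference was smaller for Psmb10 (0.32), Psmb8 (0.26) and Psmb6 (0.13), and it was 0.33 for Psmb9, 0.29 for Psmb7 and 0.27 for Psmb5. Psmb2 (-0.30) and Psmb3 (-0.08) did not exceed the median gene. By gene TPM the median over the 10 beta genes was 0.32, and that of the 17 genes of the 19S particle was -0.06. All 17 genes of the 19S particle have mean effective lengths of 1093 bases (Psmd4) or more. Of Psmb1 to Psmb10, only Psmb1 (1543.5 bases) exceeds 1000 bases. Subunit group and length therefore cannot be told apart in these differences between libraries.

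**Figure D4:**
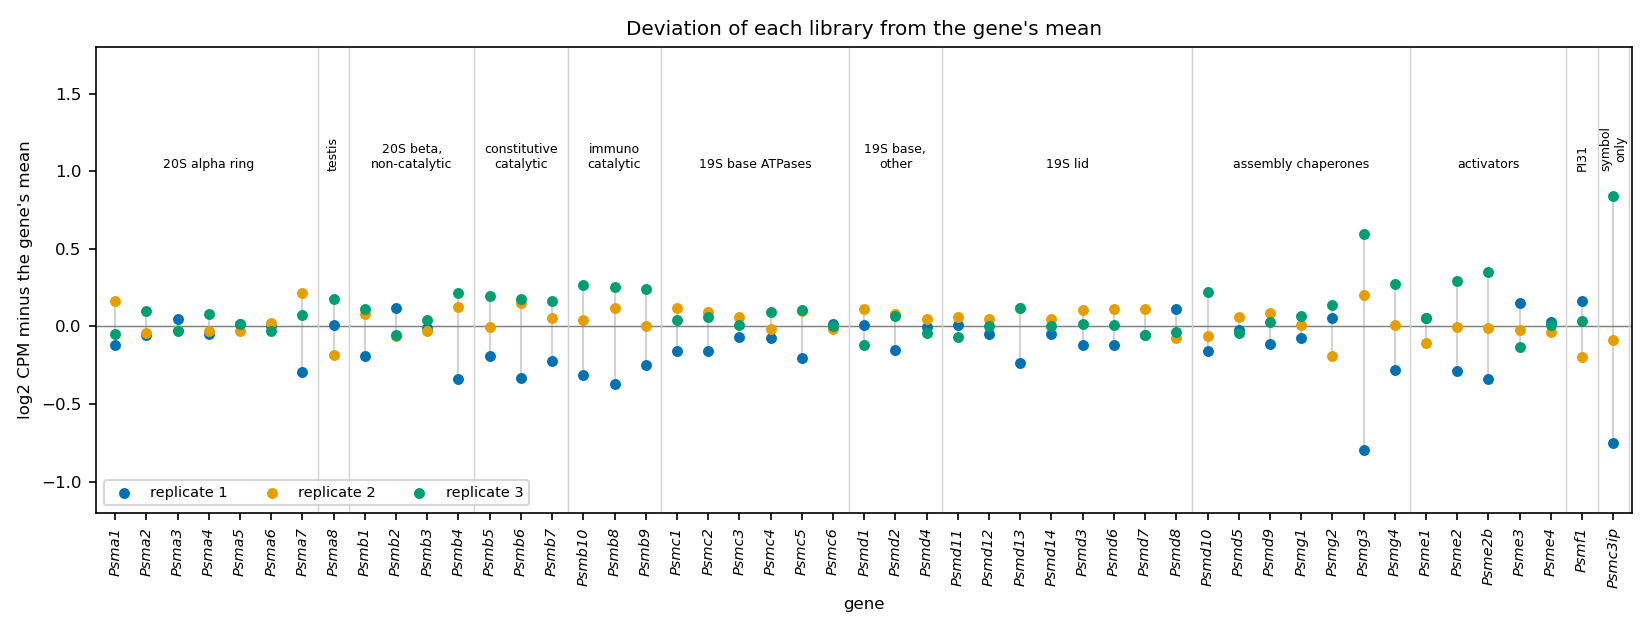
Log2 CPM of each library minus the gene's mean over 3 libraries, for the 49 members tested, grouped by role. In the 6 catalytic subunits replicate 1 lies lowest and replicate 3 highest. The median range between libraries was 0.39 for the constitutive and 0.58 for the immunoproteasome catalytic genes. It was 0.18 for the lid genes, among which Psmd13 had 0.35.

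**Figure D5:**
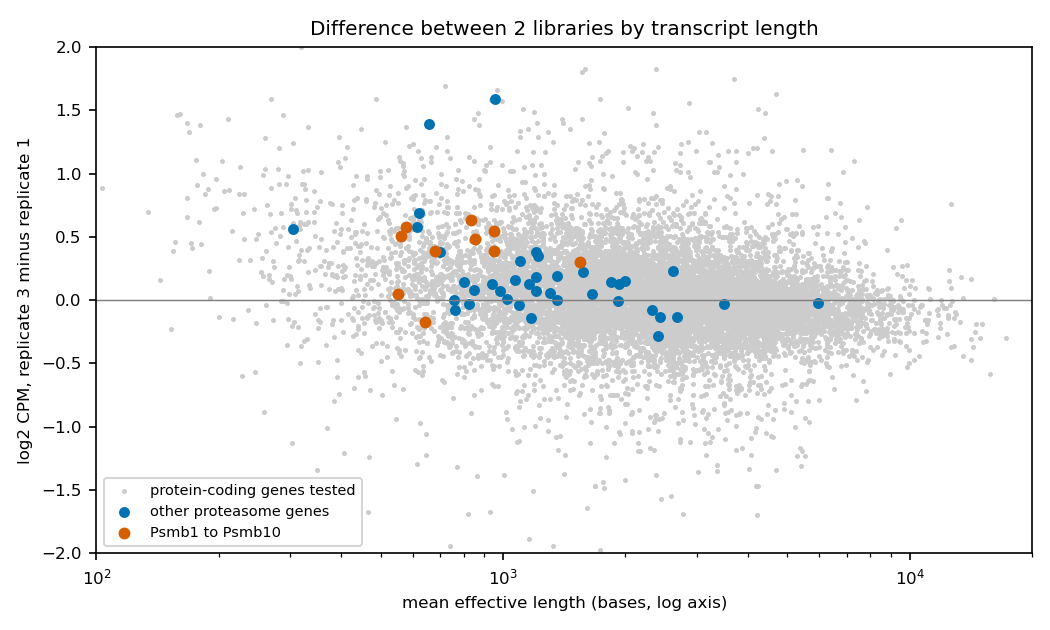
Difference in log2 CPM between replicates 3 and 1 against mean effective length (log axis), for 11136 protein-coding genes tested (grey; 13 lie outside the drawn range), Psmb1 to Psmb10 (orange) and the other members (blue). Short genes lie on both sides of 0 with a median of 0.18, and 9 of 10 orange points lie above 0.

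Genes of the same pathway with other symbols gave 26 found of 27 listed, all 26 reaching 1 TPM in every library, with a median of 24.36 TPM. Of these 26, 2 passed the edgeR test at an adjusted p of 0.05, and 3 had an unadjusted p under 0.05, beside 1.66% and 6.42% of all genes. Sem1, a small subunit of the lid, had a log2 CPM of 5.36, 6.12 and 6.37 (edgeR adjusted p = 0.00609). Pomp, the chaperone that brings beta subunits into the core, had 5.29, 6.14 and 6.17 (edgeR adjusted p = 0.0147). Both were lowest in library 1, and without library 1 their adjusted p was 0.9998 in the same edgeR test. For Sem1 the call also ended without library 3 (edgeR adjusted p = 0.19) and with a common dispersion (0.112). For Pomp it ended without library 2 (0.0654) or library 3 (0.0816), with a common dispersion (0.174) and in the second quantification (0.0605), all edgeR adjusted p.

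None of the other pathway genes was called. The ubiquitin receptor Adrm1 had 23.0, 18.1 and 22.7 TPM. Nfe2l1, a transcription factor of proteasome genes, had 48.2, 29.5 and 38.5 TPM, and Ddi2, the protease that activates it, 19.2, 11.4 and 15.6 TPM. The deubiquitinases that bind the 19S particle were Usp14, at 26.7, 13.1 and 20.5 TPM, and Uchl5, at 12.2, 7.45 and 9.26 TPM. By list, 1 of 2 further subunits, 1 of 4 assembly genes, 0 of 7 regulators, 0 of 2 deubiquitinases, 0 of 6 shuttle factors and 0 of 6 ubiquitin genes were called, Ddi2 being in 2 lists. The unadjusted count was 1 in the ubiquitin list (Rps27a) and 0 in the lists of regulators, deubiquitinases and shuttle factors.

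Of 6 genes of antigen presentation and 3 interferon regulators, none was called by edgeR, and 1 of these 9, Irf1 (log2 CPM 9.35, 9.44 and 10.10), had an unadjusted p under 0.05. Over all genes tested, 1.66% were called and 6.42% had an unadjusted p under 0.05. Tap1 and Tap2 encode the peptide transporter and lie beside Psmb8 and Psmb9 in the MHC region of chromosome 17. Tap1 had a log2 CPM of 6.44, 6.43 and 6.37, and Tap2 5.34, 5.66 and 5.46, so neither was lowest in library 1 and highest in library 3. Psmb9 and Tap1 share 212 exonic bases on opposite strands, and no source used here gives the strand setting of the counting, so reads there cannot be assigned. In all, 15 members shared exonic bases with another gene, 4 of them on the same strand, among them Psmg3. The largest overlaps with a gene at 1 TPM or more were on opposite strands, those of Psmb7 with Nek6 (405 bases) and of Psmc3ip with Mlx (385 bases). The pseudogenes named Psmb5-ps, Psmb6-ps, Psmb6-ps2 and Psmb7-ps2 were listed at 0 counts in each library.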

How the data were processed

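The members and gene lists were chosen with earlier results of these data known. Expected counts, which are estimated counts of reads, and TPM values were made by the authors library by library on mm10 and GENCODE M21, as the labels and the deposited notes state. The first set of gene and transcript tables has the layout of RSEM and the second quantification that of kallisto. Sources used here name no tool, version or strand setting. Effective lengths are those the authors deposited; the deposited posterior SDs and bounds (signal values of the authors' quantifier) were not used.

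Rows of no annotated gene (0.02 to 0.365% of counts) were left out. Gene expected counts were rounded and tested with edgeR 4.0.16 in R 4.3.3 (filterByExpr, TMM, intercept only, trended dispersion, goodness of fit, Benjamini-Hochberg over all genes tested), since 1 group allows no contrast. The step was tested on simulated data of 12231 genes. Ratios were log2 TPM within a library, with an exact sign-flip test. Coding TPM sums the transcripts annotated as protein-coding. Values per library, as TPM, counts or log2 CPM, are given for the catalytic and activator genes and for the highest and lowest 2 of each role. They are also given for members with a count of 0, and for the pathway genes Pomp, Sem1, Adrm1, Nfe2l1, Ddi2, Usp14, Uchl5, Tap1 and Tap2. The symbol Paaf1 matched no gene. The alternatives were other size factors, no filter, a common dispersion, the second quantification, counts per effective length, a pseudocount of 1 TPM, coding transcripts only, rescaling over protein-coding genes, other detection limits and each library left out.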

Additional observations from a re-analysis of the deposited data

How the results depend on the processing

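Summing only protein-coding transcripts turned the log2 ratio of Psmb8 to Psmb5 to -0.04 and of Psmb10 to Psmb7 to -0.52, and the latter to -0.51 in the second quantification, a combination chosen after seeing the data, in which Psmb8 to Psmb5 was 0.01. By gene TPM both directions held under the second quantification and a pseudocount. Counts per effective length give the same ratio within a library by construction, so that setting cannot test the directions. A common dispersion called 1 member, and 298 genes in all instead of 203. Without library 1, 2 or 3 edgeR called 132, 91 and 89 genes in all, and 0 members each time (0 to 0).

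TPM levels depended on the scale. Rescaled over protein-coding genes, the median was 72.28 TPM for all members, 115.3 for the alpha ring, 105.7 for the non-catalytic beta subunits, 91.92 and 157.5 for the constitutive and immunoproteasome catalytic subunits, 75.37 for the ATPases, 96.92 for the other base subunits, 61.06 for the lid, 12.41 for assembly and 62.14 for activators. In the second quantification these were, in the same order, 8.273, 13.02, 11.69, 9.783, 15.49, 8.72, 11.24, 7.024, 1.398 and 7.603 TPM. There the coding share was 85.11% for Psmb9, 43.53% for Psmb10 and 99.63% for Psmb7. Rescaling raises every level by arithmetic, since protein-coding genes hold only a part of each library's TPM. The cause of the shifts in the second quantification was not tested.

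Leaving out 1 library gave log2 ratios of 0.84 to 0.99, -2.85 to -2.59 and 0.76 to 0.93 for the 3 pairs. No paired analysis was possible because the series has 1 group. With 3 libraries no exact test over libraries can pass 0.05, and low members (Psma8, Psmc3ip, Psmb11) had 40 counts or fewer in each library.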
